A study of Mus musculus with 2 samples.

Results

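Mir139 and Mir744 are miRNA genes, each lying alone in an intron of a protein-coding gene. They are 2 of the 2202 miRNA genes counted in these data. They were picked by name from the 20 genes with the highest mean abundance, among those that were lower in the second of 2 libraries, so that one has a host gene known from neurons (Pde2a) and the other a host gene used in most cell types (Map2k4). Their levels and the difference between the libraries therefore chose them, and both are given as a description, with no test. The data are small-RNA sequencing libraries (RNA under 30 nt) of cortex tissue, taken from the left side of the brain of males at an age of 4 days. The strain, B6CASTF1/J, is a hybrid whose parents are the inbred strains C57BL/6J and CAST/EiJ. All samples belong to 1 group, and the labels name no treatment. It has 2 libraries, called replicate 1 and replicate 2 here, as their labels number them. The labels give each library its own male but quote the same donor identifier for both, so the spread between them may not be a spread between unrelated animals.

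A miRNA of this kind is cut as a hairpin from a longer transcript, often the intron of a messenger RNA precursor, and 1 arm of the trimmed duplex is loaded into an Argonaute protein, where its seed (bases 2 to 8 from the 5′ end) finds target messages. When hairpin and host share a promoter, the miRNA is made where the host is transcribed. Pde2a encodes a phosphodiesterase that breaks down cyclic AMP and cyclic GMP and is abundant in forebrain neurons. Map2k4 encodes a kinase that activates the stress kinases JNK and p38 in most tissues. The messages of the hosts were not measured in these libraries.

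The 4 mature arms are shown because the seeds set what each miRNA can bind and because they show that the pair is unrelated in sequence. They are written 5′ to 3′ with the seed in capitals, from RefSeq on GRCm38.p6, where 2 of 2 genes were matched.
miR-139-5p: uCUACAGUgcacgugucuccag
miR-139-3p: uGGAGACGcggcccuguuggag
miR-744-5p: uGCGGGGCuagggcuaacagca
miR-744-3p: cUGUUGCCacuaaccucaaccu
The 4 seeds differ, and each of the 4 was shared with 0 other mature miRNAs among 1738 entries of the table. The seed of miR-744-5p was made of G and C at 7 of 7 bases, against 3 in miR-139-5p, 5 in miR-139-3p and 4 in miR-744-3p. All 4 arms are 22 nt long. The longest run that an arm shared with the hairpin of any other miRNA gene, on either strand, was 9 nt for miR-139-5p, 10 for miR-139-3p, 11 for miR-744-5p and 10 for miR-744-3p. Among the 1005 hairpin genes of the table, neither gene thus has a near-copy.

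The counts are per hairpin gene and do not separate the arms. The hairpins are shown with both arms in capitals, since a read from either arm adds to the same count.
Mir139 hairpin: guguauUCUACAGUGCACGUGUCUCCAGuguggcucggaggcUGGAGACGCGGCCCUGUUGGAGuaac
Mir744 hairpin: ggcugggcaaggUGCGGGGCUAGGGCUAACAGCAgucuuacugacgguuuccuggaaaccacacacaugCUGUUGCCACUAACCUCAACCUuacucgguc
The Mir139 hairpin has 68 bases, with 14 between its arms, and the Mir744 hairpin has 100 bases, with 35 between its arms. The longest run common to the 2 hairpins was 6 bases. Folding with RNAfold gave a predicted minimum free energy of -35.6 kcal/mol with 25 base pairs for Mir139 and -44.8 kcal/mol with 38 base pairs for Mir744. G and C made up 58.8% of the Mir139 hairpin and 56% of the Mir744 hairpin. The median was 51.4% over 397 hairpins with a sequence in the table and at least 10 counts summed over the libraries, of which 306 and 276 had a lower share than Mir139 and Mir744.

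Mir139 (ENSMUSG00000065446.1) lies at chr7:101475376-101475443 on the plus strand of mm10, and Mir744 (ENSMUSG00000076460.1) at chr11:65734733-65734832 on the minus strand, each on the strand of its host. In GENCODE M21 all 10 Pde2a transcripts that span Mir139 place it in an intron, as do all 5 Map2k4 transcripts that span Mir744, and 0 exons of any other gene overlap either hairpin. In the transcript Pde2a-201 the hairpin sits in intron 2 of 30, which is 29902 bases long, 23907 bases past the exon before it and 5927 bases short of the next one. In Map2k4-201 it sits in intron 3 of 10, which is 15588 bases long, 359 bases past the exon before it and 15129 bases short of the next one. Mir139 also lies inside Gm45837, a protein-coding model on the same strand that starts upstream of Pde2a and overlaps it. Both hairpins lie a similar way into their host, 53.7 kb and 53.5 kb from the 5′ end of these transcripts. They stand far from other miRNA genes: the nearest annotated one is 405741 bases from Mir139 and 666926 bases from Mir744, and both neighbours had 0 counts in each library.

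**Figure D1:**
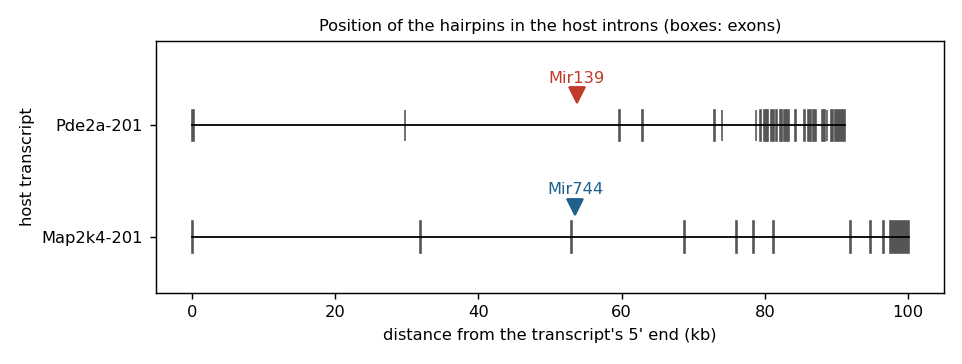
Gene models of the host transcripts Pde2a-201 and Map2k4-201, with boxes for exons, lines for introns and a triangle at each hairpin; the horizontal axis is the distance from the 5′ end of the transcript in kb. Mir139 lies at 53.7 kb in intron 2 of Pde2a-201, and Mir744 at 53.5 kb in intron 3 of Map2k4-201, just past exon 3.

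The library labelled replicate 2 stands apart from its label. Own-strand reads on miRNA genes numbered 2999032 in replicate 1 and 3577964 in the other. Neuron-enriched miRNAs (16 listed) took 4.28% of these counts in replicate 1 and 0.132% in replicate 2. Of those with at least 10 counts, 12 of 12 had a lower share in the latter, as did 327 of all 463 genes with that many. The Mir124a copies and Mir9-2 were at 0 in replicate 2. However, Mir124a-2 and Mir124a-3 had only 3 and 1 counts in replicate 1, too few to show a loss. Reads placed at several sites are not counted, so reads of miRNAs with several gene copies may be missing from these shares. Muscle miRNAs (9 listed) took 0.00730% and 15.7%, nearly all of it Mir206 with 212 and 559242 counts, and 6 of 9 were at 0 in replicate 1. Hox cluster miRNAs (6 listed), which mark hindbrain and trunk, took 0.0231% and 1.97%. Vascular miRNAs (3 listed) took 1.71% and 4.70%, and red blood cell miRNAs (2 of 3 listed matched by name) 0.00167% and 0.00682%. The unmatched one is named Mir486 in the annotation, had 86 and 305 counts and is left out of these shares. Oligodendrocyte miRNAs (3 listed) took 0.0615% and 0.0454%. Most of the oligodendrocyte share was Mir338, with 1491 and 1610 counts, which is also listed below under a neuron-rich host, while Mir219a-2 had 314 and 3 counts and Mir219a-1 had 39 and 10. Each value below is therefore given for each library. The part of these shifts in the values of Mir139 and Mir744 was not tested, and in bulk tissue fewer cells of a type and less miRNA per cell cannot be told apart.

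Mir139 had 87343 counts in replicate 1 and 20657 in replicate 2. In CPM (counts scaled to the own-strand miRNA total of the library) this was 29124 (exact 95% binomial interval 28934 to 29315) and 5773 (5695 to 5852), or 17449 ± 16511 (SD, n = 2). The gene took 2.91% and 0.577% of counts, and it ranked 6 and 31 among all miRNA genes. Reads placed at several sites (46.1% and 39.8% of all reads) are left out of these counts. Genes with near-copies may thus lose reads that Mir139 and Mir744 keep. The ranks and shares of both genes therefore hold for the counted reads only. The level in replicate 2 was 5.04-fold lower (interval 4.97 to 5.12; log2 ratio -2.33).

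Mir744 had 105904 and 18032 counts in the same order. This was 35313 CPM (35104 to 35522) and 5040 CPM (4967 to 5114), or 20176 ± 21406 (SD, n = 2). It took 3.53% and 0.504% of counts and ranked 5 and 33. The level was 7.01-fold lower in replicate 2 (6.90 to 7.12; log2 ratio -2.81). For both genes the SD over the libraries is about as large as the mean, so the mean describes neither library. The intervals cover counting error only, and reads amplified without molecular identifiers are not independent molecules.

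**Figure D2:**
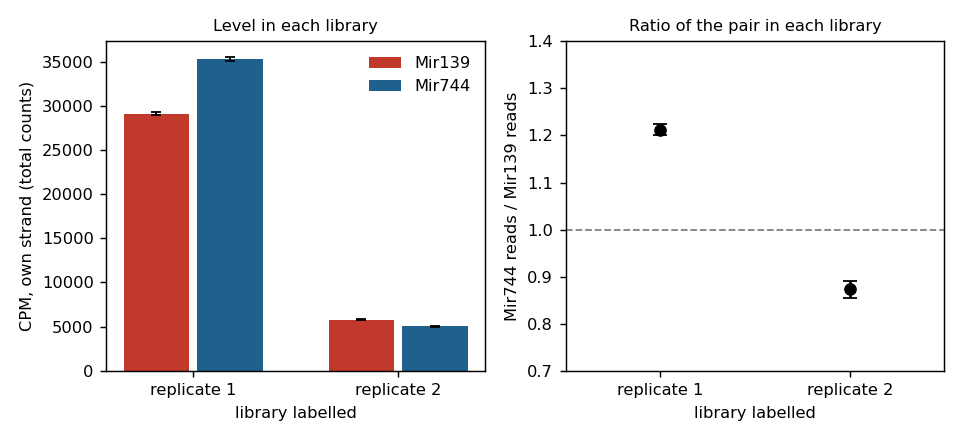
Left, own-strand CPM of Mir139 and Mir744 (bars) in each library with exact 95% binomial intervals. Right, Mir744 reads divided by Mir139 reads in each library with the same kind of interval; the dashed line marks equal counts, and the ratio lies above it in replicate 1 (1.21) and below it in the other (0.873).

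The order of the pair differed between the libraries. Mir744 had 1.21 reads for each read of Mir139 (interval 1.20 to 1.22) in replicate 1 and 0.873 (0.856 to 0.891) in replicate 2, a comparison that no library scaling can move. The log2 ratio of Mir139 lay 0.47 above that of Mir744. The smaller difference was thus that of the gene in the neuron-rich host, and its cause was not tested. With arms of equal length, the order per base of mature miRNA is the order of the counts. Per base of hairpin, which is longer for Mir744, Mir139 was the higher of the pair in both libraries, with 1284 against 1059 counts per base in replicate 1 and 304 against 180.3 in the other.

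Neighbours in the order of levels were mostly apart beyond counting error. In replicate 1, Mir99a stood above Mir744 at 65691 CPM, and Mir487b, a miRNA of the imprinted Dlk1-Dio3 region, stood below Mir139 at 27160 CPM (26976 to 27344). In replicate 2, Mir652 stood above Mir139 at 6059 CPM (5979 to 6140). Mir22 at 5112 CPM (5038 to 5187) came between the pair, and its interval overlapped that of Mir744, so those 2 levels are not told apart by counting error. With 1 library on each side, no spread between replicates can be set against any of these differences.

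Scaling moved the size of the difference but, under the alternatives run, not its direction. Leaving the muscle gene Mir206 out of the totals gave log2 ratios of -2.09 for Mir139 and -2.56 for Mir744. With the TMM method, which centres the ratios on the bulk of the genes, Mir139 was 1.91-fold lower (log2 ratio -0.93, interval -0.95 to -0.91) and Mir744 2.65-fold lower (-1.41, interval -1.43 to -1.38). As a share of all reads of the library, reads given to no gene included, Mir139 took 0.871% and 0.304%, and Mir744 1.06% and 0.265%. Mir139 was thus past a 2-fold difference with total counts and short of it with TMM, whereas Mir744 was past it with both.

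**Figure D3:**
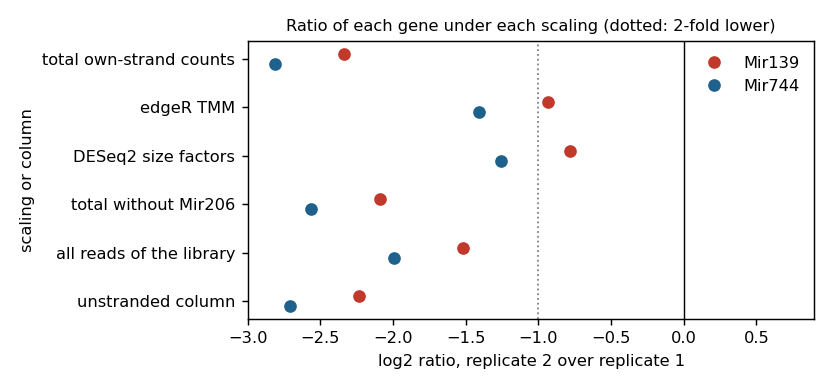
Log2 ratio of Mir139 and Mir744, replicate 2 over replicate 1, for each scaling or count column; the dotted line marks 2-fold lower. All points lie below 0, Mir744 lies left of Mir139 in each row, and Mir139 lies right of the dotted line with TMM (-0.93) and with DESeq2 size factors (-0.78).

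Such a difference was common in these libraries. Of 463 genes with at least 10 counts summed over the libraries, 268 (57.9%) were at least 2-fold lower in replicate 2 with total counts, and 100 (21.6%) at least 2-fold higher. With TMM these were 169 (36.5%) and 160 (34.6%). The rule used this contrast, so nothing is read from the place of the pair beside these shares. The median log2 ratio of all 463 genes was -1.67 with total counts and -0.27 with TMM. Among the 99 genes with a mean of at least 1000 CPM, whose abundance is nearer to that of the pair, 46 (46.5%) were at least 2-fold lower and 34 at least 2-fold higher with total counts, with a median of -0.77. A lower ratio than that of Mir139 was found for 183 of the 463 genes, and a lower ratio than that of Mir744 for 148. Every gene at 0 in replicate 2 counts as lower here, and nothing is read from these places either. Among the 20 genes of highest mean abundance, 6 were lower with total counts and 4 with TMM. Mirlet7i, Mirlet7g, Mirlet7b and Mir99a were the other 4 of the 6, so the pair are its members from outside the let-7 and miR-99 families. The gene just inside the top 20 was Mir26b, at 9023 and 16941 CPM, and the gene just outside was Mir382, at 13614 and 12098 CPM.

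The genes with levels most like each of the pair were found by the distance in log2(CPM + 1) over the 2 libraries. Mir139 and Mir744 were each the nearest gene to the other, at a distance of 0.34. Next to Mir139 came Mir652 (1.00), Mirlet7e (1.01), Mir99b (1.25) and Mir100 (1.503), and next to Mir744 came Mirlet7e (1.07), Mir99b (1.29), Mir652 (1.30) and Mirlet7b (1.54). Mir652, in an intron of Tmem164, had 43816 and 21679 counts. Mirlet7e and Mir99b had 57372 and 11817, and 54394 and 9972 counts. The distance rests on 2 values per gene and says nothing of shared control.

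**Figure D4:**
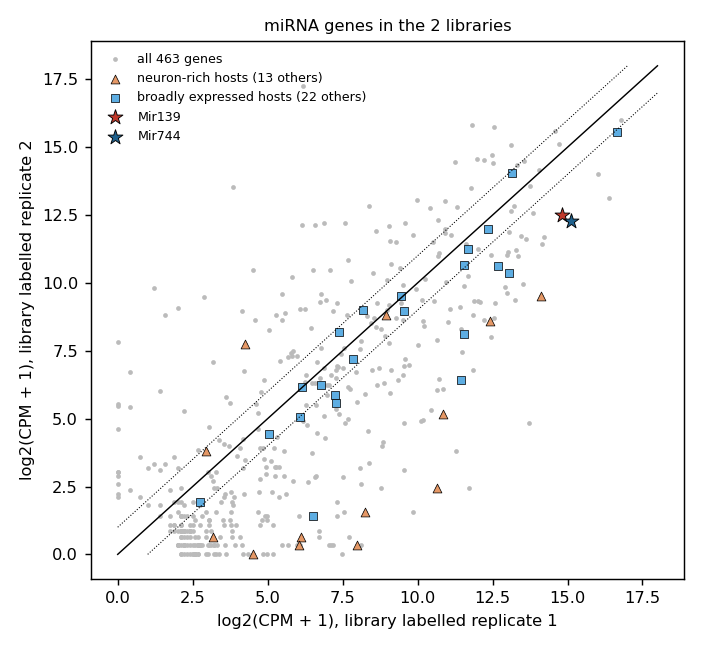
Levels of 463 miRNA genes as log2(CPM + 1) in replicate 1 (horizontal axis) and replicate 2 (vertical axis), with the solid line at equal levels and dotted lines at 2-fold. The stars for Mir139 and Mir744 lie side by side below the lower dotted line, while most miRNAs of neuron-rich hosts (triangles) lie further below it and most miRNAs of broadly expressed hosts (squares) lie nearer to the solid line.

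Intronic miRNAs were then set out by the kind of host gene, from lists made by general knowledge of the hosts. Earlier results of these data were known when the lists were made, so the values below are a description and no independent support. Of 16 listed miRNAs of neuron-rich hosts, 15 lie inside the named host on its strand and 14 had enough counts. With Mir139 included, 11 of the 14 were at least 2-fold lower in replicate 2, 1 was at least 2-fold higher and 2 lay between. Some of the lower members, such as Mir488 (912 and 7 counts) and Mir346 (757 and 1), passed the count filter only through replicate 1. The filter thus favours a lower call for them, here as among all genes. Members that share a host, such as those in Htr2c, were each counted. Over all 463 genes the shares were 57.9% lower and 21.6% higher. The median log2 ratio of the list was -4.65, against -1.67 over all genes. Without Mir139, 10 of 13 were lower. Of 25 listed miRNAs of broadly expressed hosts, 23 lie inside the host and all 23 had enough counts. With Mir744 included, 11 of the 23 were at least 2-fold lower, 0 were higher and 12 lay between, with a median of -0.87. Without Mir744, 10 of 22 were lower. With TMM, 10 were lower and 3 higher for neuron-rich hosts (median -3.25). For broad hosts 5 were lower and 6 higher (median 0.53), against 36.5% lower and 34.6% higher over all genes. The direction of the broad list thus depends on the scaling.

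Each of the pair lay away from the median of its own list, towards the other list. Both were chosen by their levels and by the difference between the libraries, so nothing is read from these places. Of the 13 other miRNAs of neuron-rich hosts, 10 had a lower ratio than Mir139 and 3 a higher one, and Mir139 lay 2.36 above their median of -4.69 on the log2 scale. The higher ones were Mir224 and Mir452, which share the host Gabre, and Mir338 of Aatk. Mir128-1 (R3hdm1), a neuronal miRNA, had 53592 and 2623 counts, a log2 ratio of -4.61. Mir128-2 (Arpp21) had 16271 and 1379 counts (-3.82), and Mir598 (Xkr6) had 5475 and 125 (-5.71). Mir383 (Sgcz) had 4802 and 16, and Mir488 (Astn1) had 912 and 7. Mir346, in the glutamate receptor gene Grid1, had 757 and 1. In the neuron-rich list Mir139 was the most abundant member of both libraries, with the next one, Mir128-1, at 17870 and 733 CPM.

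Of the 22 other miRNAs of broadly expressed hosts, 19 had a higher ratio than Mir744 and 3 a lower one, and Mir744 lay at -2.03 from their median of -0.77 on the log2 scale. The lower ones were Mir26a-1 (Ctdspl), with 272 and 6 counts, Mir330 (Eml2), with 8347 and 304, and Mir107 (Pank1), with 8887 and 990. Mir93, in the replication factor gene Mcm7, came closest to Mir744 from above, with 25213 and 4757 counts (-2.66). Mirlet7g (Wdr82) had 307351 and 173681 counts (-1.08), Mir98 (Huwe1) had 15558 and 14367 (-0.37), and Mir361 (Chm) had 19660 and 5687 (-2.04). Mir26b, in the phosphatase gene Ctdsp1, went the other way, with 27061 and 60616 counts (0.91). These distances from the list medians do not change with the scaling, which shifts all genes alike.

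Some listed genes share at least 20 nt with another hairpin, so their reads may be lost or uncertain. These are 2 of the neuron-rich list (Mir128-1 and Mir128-2) and 9 of the broad list, Mir107 and Mir26a-1 among them. Neither Mir139 nor Mir744 does. Without such genes, 9 of 12 and 5 of 14 were at least 2-fold lower with total counts, against 57.9% over all 463 genes. Their medians were -5.20 and -0.54. The lists were not tested, and how much each host was transcribed here is not known.

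**Figure D5:**
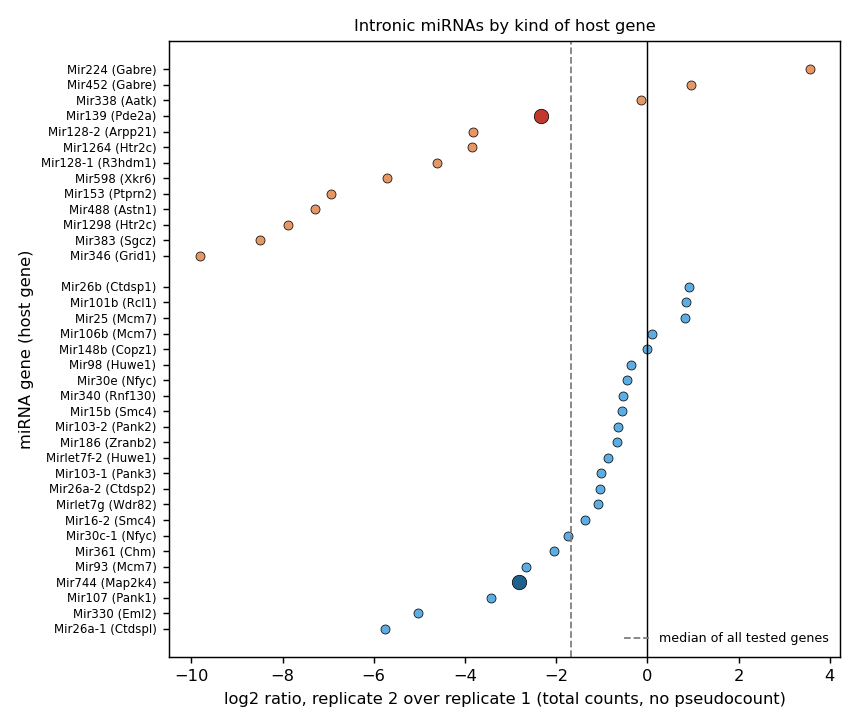
Log2 ratio of each listed miRNA, replicate 2 over replicate 1, by total counts, with its host gene in brackets; orange and blue points are neuron-rich and broadly expressed hosts, the large points are Mir139 and Mir744, and the dashed line is the median of all 463 genes. Mir139 lies near the top of its list and Mir744 near the bottom of its own; Mir448 of Htr2c, with 65 and 0 counts, is not drawn.

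The pair also shares its setting in the genome, which like its abundance was part of how it was chosen. Nothing is therefore read from its ranks in the class below. Of the 463 genes, 188 (40.6%) lie in an intron of a protein-coding gene on its strand, and 143 of these have no other miRNA gene within 10 kb. By mean CPM, Mir744 ranked 3 and Mir139 ranked 4 in this class of 143, after Mirlet7g of Wdr82 and Mir335 of the imprinted gene Mest. Of the class, 107 (74.8%) were at least 2-fold lower in replicate 2 with total counts and 18 higher, with a median log2 ratio of -2.27. Over all 463 genes, 57.9% were lower and 21.6% higher (median -1.67). With TMM 64 of the class were lower and 29 higher (median -0.86), against 36.5% lower and 34.6% higher over all genes (median -0.27). The 45 intronic genes with another miRNA gene within 10 kb had 20 lower and 8 higher with total counts (median -0.87), and 11 lower and 18 higher with TMM (median 0.54). The 275 other genes had 141 lower (51.3%) and 74 higher with total counts (median -1.13), and 94 lower and 113 higher with TMM (median 0.27). The balance of these groups of 45 and 275 genes thus turns with the scaling. This class was drawn up after the values were seen and was not tested.

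The strand columns of the tables gave the same picture. Both genes had 0 reads on the opposite strand in each library, where 0 allows up to 1.00 CPM and 0.838 CPM (3 counts), and their counts on either strand equalled those on their own strand. In the column of either strand, which loses reads where miRNA genes overlap, Mir139 ranked 6 and 27 and Mir744 ranked 5 and 29.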

How the data were processed

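Each deposited table gives raw counts of reads for each miRNA gene of 1 library, on mm10 with GENCODE M21, per the text deposited with it. Of the software that placed and counted the reads, the sources used here say nothing. The layout (4 entries without a gene, 3 columns) is that of STAR gene counts, so column 3 was read as own-strand counts. Reads placed at several sites (46.1% and 39.8% of reads), unplaced reads (18.4% and 6.11%) and reads outside miRNA genes (5.55% and 1.47%) stayed out of library sizes. All 2202 identifiers matched the annotation.

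CPM used own-strand totals. Ratios carry no pseudocount, and intervals are exact Clopper-Pearson (95%). A 0 count in 1 library was set to 3 counts in the medians of lists, classes and all genes. The same was done for places in the lists and for the numbers of genes at least 2-fold lower or higher. No test was run: the members were chosen by this contrast, and there is 1 library on each side, so the edgeR quasi-likelihood test has no replicates. TMM (edgeR 4.0.16, R 4.3.3; factors 1.63 and 0.615) and DESeq2 1.42.0 size factors, over genes with at least 10 counts summed, were alternatives, with other columns, filters of 1 and 100 counts, a pseudocount of 1 CPM, removal of Mir206, and each library alone. Removal of genes sharing 20 nt with another hairpin was added after seeing the data. The ratio and its interval were tried on simulated counts with known folds. These held counting error only, so the trial checks the calculation and says nothing of spread between libraries. The members and lists were chosen with earlier results of these data known. Named genes are the pair, list members by mean CPM (up to 8), the 5 nearest genes, the genes ranked 20 and 21, the leading markers, and rank neighbours, hosts' exceptions, Mir448 (for its 0 count) and other top genes named after their values were seen. Software also included Python 3.11.15, scipy 1.17.1 and RNAfold 2.7.2.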

Additional observations from a re-analysis of the deposited data

How the results depend on the processing

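The log2 ratio stayed below 0 under the 6 alternatives run for each gene. For Mir139 it was -0.93 with TMM, -0.78 with DESeq2 size factors, -2.09 with Mir206 left out of the totals, -1.52 with all reads and -2.24 with the unstranded column. For Mir744 these were -1.41, -1.26, -2.56, -1.99 and -2.71. A pseudocount of 1 CPM left both as they were to 2 decimals (-2.33 and -2.81). The mean level is 5773 to 29124 CPM for Mir139 and 5040 to 35313 CPM for Mir744 when either library is left out, and Mir744 over Mir139 is 0.873 to 1.21. The median of the neuron-rich list was -3.25 with TMM, -3.10 with DESeq2, -5.71 with at least 100 counts and -5.20 without genes sharing 20 nt with another hairpin. The median of the broad list reversed to 0.53 with TMM and 0.68 with DESeq2. These shifts follow from the scaling, which moves all genes alike, and from fewer genes. Genes at least 2-fold lower numbered 268, or 169 with TMM, 159 with DESeq2 and 144 with at least 100 counts; genes at least 2-fold higher numbered 100, or 160 with TMM and 171 with DESeq2. No paired analysis was possible because there is only 1 group. With 1 library on each side, depth limits little for the pair and the number of libraries limits all of it.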

Other observations

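Other abundant genes that lie alone in an intron showed a wide range of ratios between the libraries, given here as values. Mir708, in an intron of Tenm4, a teneurin of developing neural circuits, had 16740 and 923 counts (log2 ratio -4.44, total counts). Mir342, in an intron of Evl, an actin regulator, had 18462 and 2204 (-3.32). Mir149, in an intron of the proteoglycan gene Gpc1, had 24078 and 7409 (-1.96), and Mir151, in an intron of the focal adhesion kinase gene Ptk2, had 33268 and 12094 (-1.71). Mir335 of Mest had 26818 and 123752 (1.95). These genes were picked by mean CPM after their values were seen, and none was tested.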
